A study of Mus musculus with 12 samples.

Results

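The comparison described here set MOC2-27 cells, labelled EV-deficient, against MOC2-25 cells, labelled EV-proficient, both sampled without drug. It used 6 of the 12 libraries of the series, 3 for each label, chosen by their sample titles. MOC2 is an established mouse oral squamous cell carcinoma line, and the study's design text describes a genetic block of the release of extracellular vesicles (EVs) by senescent cells. The labels do not name the blocked gene, and each label is carried by 1 derivative of the line, so the label and any other difference between the derivatives cannot be told apart. The 6 libraries are controls by title and carry DMSO, the drug's solvent, as their treatment. All cultures were grown in a serum-containing epithelial medium with hydrocortisone, cholera toxin, transferrin, insulin, triiodothyronine and EGF. The other 6 libraries came from the same derivatives after 600 nM paclitaxel for 48 h, given to make them senescent, and are used below only to set the drug-free difference beside that under the drug.

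EVs are membrane particles that cells shed, some formed inside endosomes and released when these fuse with the cell surface, others budded from the surface itself. Endosomal vesicles are loaded by the ESCRT complexes, by ceramide and by tetraspanins, and RAB27 GTPases with their effectors bring the vesicle-filled endosomes to the plasma membrane. Squamous carcinoma cells build their cytoskeleton from keratins, adhere through cadherins, desmosomes and integrins, and can hold part of the differentiation programme of the epithelium they come from.

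The library totals lay between 36398070 counts (EV-proficient replicate 3) and 62955757 counts (EV-deficient replicate 1), and 18108 genes passed the low-count filter. A floor of 3 counts was worth between 0.0477 and 0.0824 CPM (counts scaled to the library total) in these libraries. Levels given below are CPM scaled further between libraries (TMM). On that scale the floor averaged 0.0606 CPM in the EV-deficient and 0.0775 CPM in the EV-proficient libraries. The first principal component of the 6 libraries held 46.7% of the variance and separated the labels, with EV-deficient libraries at 37.4 to 38.8 and EV-proficient libraries at -41.9 to -32.9. The second held 17.3% and spread the EV-proficient libraries from -44.7 (replicate 1) to 33.0 (replicate 3), while the EV-deficient libraries lay between -4.69 and 5.98. Over the 9272 genes of at least 8 CPM, the median SD of log2 CPM among replicates was 0.0750 in EV-proficient and 0.0499 in EV-deficient libraries, and 72.0% of these genes varied more among the EV-proficient libraries. The labels do not say whether replicates came from separate cultures, so the p-values below measure the spread between these libraries, which may be technical.

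One property of the labels bears on every direction given below. Of the genes that differed between the labels without drug, 88.7% had a difference of opposite sign between the same labels under paclitaxel, against 67.1% of all tested genes. Whether the labels of 1 treatment were exchanged was not tested, and the gene that was blocked, which could check the labels, is not named. The groups are therefore called by their labels throughout, and every direction is that of the drug-free libraries as labelled.

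The markers of squamous epithelium were present only in part. The keratins Krt8 and Krt18, the cadherin Cdh1 and Epcam were abundant, with means between 407 and 2196 CPM, and the 10 epithelial markers together summed to 5870.8 to 6373.6 CPM in EV-deficient and 5128.1 to 5569.8 CPM in EV-proficient libraries. Krt5 and Trp63, which define basal squamous cells, were nearly absent, at means of 0.101 and 0.0857 CPM in EV-deficient and 0.0568 and 0.0406 CPM in EV-proficient libraries. Of the markers of fibroblasts, endothelial cells, melanocytes, skeletal muscle and T and B lymphocytes, each list summed to at most 3.44 CPM in every library. Of those markers the lymphocyte gene Ptprc (1.17 ± 0.40 SE) and the muscle factor Myod1 (2.53 ± 0.66 SE) were higher and the endothelial cadherin Cdh5 (-0.92 ± 0.30 SE) was lower in the EV-deficient libraries, all at means under 2 CPM. The calls of Ptprc and Cdh5 were not made in 6 and 5 of 15 alternative settings, among them fits without 1 library (1.02 to 1.26 and -0.91 to -0.79). Among 9 rows for 8 macrophage markers, only Csf1r differed, 6 others (Adgre1, Lyz2, Itgam, C1qa, C1qb and Fcer1g, with Itgam present under 2 identifiers) had means under 0.1 CPM in both groups, and C1qb was at 0 in all 6 libraries.

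Without drug, 4162 of the 18108 genes (23.0%) differed between the labels at an adjusted p under 0.05 (edgeR quasi-likelihood test, Benjamini-Hochberg adjustment). Of these, 2242 (12.4% of all tested genes) were higher and 1920 (10.6%) lower in the EV-deficient libraries. Most differences were small, with a median absolute log2 fold change of 0.44, and 2601 of the 4162 (62.5%) were under 1.5-fold. At least 2-fold differences were found for 470 genes higher (2.60%) and 438 lower (2.42%). The 3 EV-deficient libraries lay entirely above or below the 3 EV-proficient ones for 7835 of all tested genes (43.3%) and for 4113 of the 4162. The higher genes were 53.9% of those passing the test, and this majority depended on the scaling: upper quartiles gave 47.1%, the median of ratios 48.2%, and DESeq2 48.8%, with 49.1% in a fit of the 6 libraries alone and 64.1% without the low-count filter. Without EV-deficient replicate 1, 2980 genes passed, and the fit of the 6 libraries alone passed 5697.

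The share of genes that differed rose with expression level, from 4.62% among the 1 in 4 genes of lowest mean CPM to 22.1%, 31.8% and 33.4% in the next 3 groups of that size. It was 27.8% for 14407 protein-coding genes, 8.33% for 600 long intergenic non-coding RNAs and 4.09% for 856 processed pseudogenes. Among the 9259 genes of at least 8 CPM with a position on a nuclear chromosome, 32.7% differed, 17.9% higher and 14.8% lower. The gene groups below hold mostly well expressed genes, so both this share and the 23.0% of all genes stand as their background. The median log2 fold change of all tested genes was 0.04. In the gene groups, "higher" and "lower" are used of members past the edgeR threshold, in the direction of the EV-deficient libraries, and each value after a gene name is a log2 fold change unless CPM is given.

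**Figure D1:**
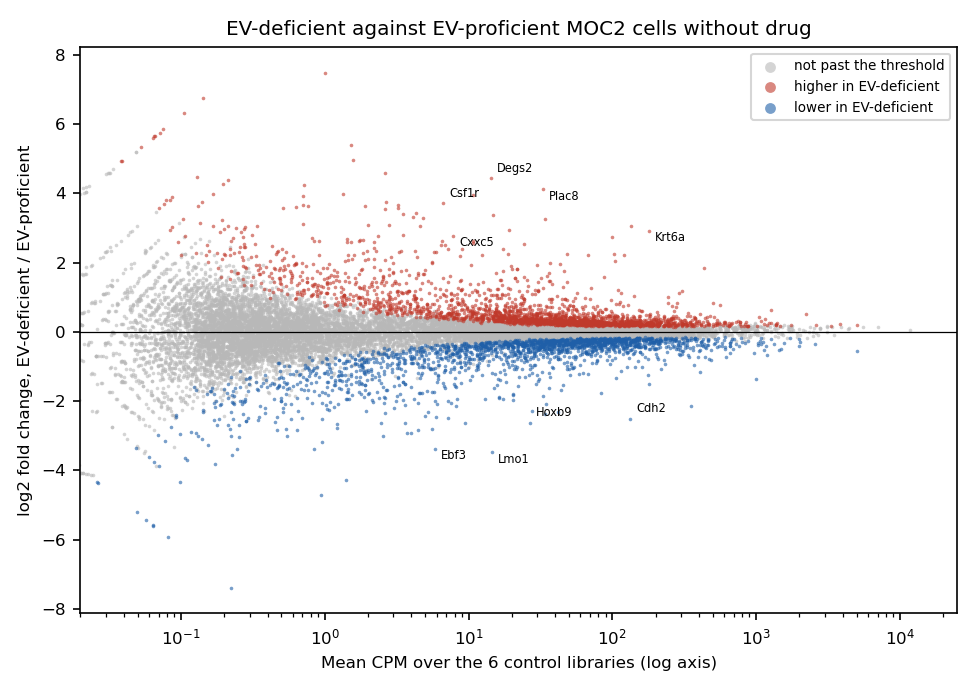
Each point is 1 tested gene with a mean of at least 0.02 CPM over the 6 control libraries; the horizontal axis gives that mean in CPM on a log scale and the vertical axis the log2 fold change of EV-deficient over EV-proficient libraries without drug. Red points passed the threshold as higher and blue points as lower in the EV-deficient libraries; Degs2 (4.45) and Lmo1 (-3.47) mark the extremes among the genes named by size.

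The 12 genes with the highest and the 12 with the lowest fold changes, among genes of at least 5 CPM with groups that did not overlap, were taken for closer description. The largest edgeR adjusted p among these 24 was 4.82e-09. RefSeq promoters (250 bases before to 50 after the start, build GRCm38.p6) were found for 13 of them. The promoters of 2 strongly higher and 2 strongly lower genes are shown because these genes went furthest apart between the labels. Capitals mark each CG pair, the dinucleotide that carries DNA methylation in mammals.
Degs2: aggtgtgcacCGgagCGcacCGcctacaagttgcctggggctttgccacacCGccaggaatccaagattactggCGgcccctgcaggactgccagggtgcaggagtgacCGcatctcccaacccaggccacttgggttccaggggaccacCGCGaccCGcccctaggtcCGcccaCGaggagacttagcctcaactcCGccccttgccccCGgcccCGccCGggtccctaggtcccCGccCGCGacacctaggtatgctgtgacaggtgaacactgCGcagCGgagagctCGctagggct
Plac8: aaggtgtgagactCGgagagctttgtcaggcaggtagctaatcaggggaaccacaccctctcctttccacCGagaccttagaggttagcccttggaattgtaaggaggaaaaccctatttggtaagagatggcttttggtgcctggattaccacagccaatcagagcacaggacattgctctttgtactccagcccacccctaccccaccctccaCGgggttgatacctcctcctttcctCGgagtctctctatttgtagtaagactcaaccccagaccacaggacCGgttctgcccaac
Lmo1: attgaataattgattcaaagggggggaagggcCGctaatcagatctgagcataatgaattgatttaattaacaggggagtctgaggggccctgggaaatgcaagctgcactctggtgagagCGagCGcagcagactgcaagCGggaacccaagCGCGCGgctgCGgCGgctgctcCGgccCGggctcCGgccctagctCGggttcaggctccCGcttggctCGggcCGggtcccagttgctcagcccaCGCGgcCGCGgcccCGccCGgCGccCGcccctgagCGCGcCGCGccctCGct
Ebf3: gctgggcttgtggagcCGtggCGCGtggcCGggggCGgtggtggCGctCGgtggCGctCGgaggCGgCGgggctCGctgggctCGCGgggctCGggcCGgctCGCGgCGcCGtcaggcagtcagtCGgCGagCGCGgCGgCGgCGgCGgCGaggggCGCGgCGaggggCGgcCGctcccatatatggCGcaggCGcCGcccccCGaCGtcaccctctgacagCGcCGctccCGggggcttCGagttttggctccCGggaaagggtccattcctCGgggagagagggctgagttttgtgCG
The windows lie at chr12:108702257-108702556, chr5:100572156-100572455, chr7:109175158-109175457 and chr7:137314396-137314695, all on the minus strand. They hold 21, 5, 29 and 46 CG pairs in that order, against a median of 7 (quartiles 3 and 20) over 32851 promoters of 300 bases. The TATA-box letters TATAAA were in none of the 4 windows on either strand and in 13.6% of all promoters. The AP-1 letters TGANTCA, read on both strands, occurred 1 time in the Lmo1 window and in 7.81% of all promoters. These counts describe the letters of the reference, not binding or methylation in these cells. Plac8 and Lmo1 each have 2 listed starts, of which only the first was read, and which start was in use was not tested.

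Degs2 (ENSMUSG00000021263, chr12:108678711-108702315) encodes a sphingolipid desaturase and hydroxylase that makes phytoceramide. Its level was 30.1, 26.7 and 25.2 CPM in the EV-deficient and 1.39, 1.39 and 0.937 CPM in the EV-proficient libraries, a log2 fold change of 4.45 ± 0.18 SE. The groups were far apart, and the EV-proficient libraries were near 1 CPM. Plac8 (ENSMUSG00000029322, chr5:100553725-100572245), which encodes a small cysteine-rich protein, was at 69.2, 61.7 and 55.5 CPM in the EV-deficient and 3.44, 3.45 and 3.92 CPM in the EV-proficient libraries, a log2 fold change of 4.11 ± 0.10 SE. Peg10 (ENSMUSG00000092035, chr6:4747306-4760517), an imprinted gene of retrotransposon origin, was at 20.8, 20.1 and 19.8 CPM in the EV-deficient and 1.39, 1.56 and 0.966 CPM in the EV-proficient libraries, which gave 3.94 ± 0.21 SE on the log2 scale. The 3 EV-deficient values of Peg10 lay within 1 CPM of each other.

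Among the other strongly higher genes were a pair usually expressed by myeloid cells and leukocytes. Csf1r, the receptor for CSF1 and IL-34, was at 12.5, 12.8 and 11.9 CPM in the EV-deficient and 0.755, 1.05 and 1.02 CPM in the EV-proficient libraries (3.71 ± 0.20 SE, log2). Itgb2, the beta chain of the leukocyte integrins, was at 27.98, 25.8 and 27.8 CPM in the EV-deficient and 3.14, 2.27 and 2.34 CPM in the EV-proficient libraries (3.39 ± 0.16 SE, log2). The 9 macrophage rows summed to 19.98 to 21.05 CPM in the EV-deficient and 7.18 to 8.08 CPM in the EV-proficient libraries, almost all of it Csf1r and Cd68. The leukocyte gene Ptprc, named above, had means of 0.889 and 0.396 CPM, and the part of other cells in these values was not tested. In bulk libraries such as these, more cells of a type and more RNA per cell cannot be told apart. Bmp7, a secreted ligand of the BMP branch of the TGF-beta family, was at 62.3, 60.2 and 63.000 CPM in the EV-deficient and 6.33, 6.10 and 6.79 CPM in the EV-proficient libraries (3.27 ± 0.16 SE, log2). Tnc, the matrix protein tenascin C, was at 239, 237 and 244 CPM in the EV-deficient and 29.6, 28.8 and 27.8 CPM in the EV-proficient libraries (3.06 ± 0.12 SE, log2). Edn2, the vasoactive peptide endothelin 2, and the keratin Krt6a had log2 fold changes of 2.95 ± 0.17 and 2.92 ± 0.09 SE. The remaining 3 were Cxxc5, a CXXC zinc-finger protein that binds unmethylated CG pairs (2.78 ± 0.16 SE), Lrp2, the endocytic receptor megalin (2.74 ± 0.11 SE), and Tenm4, a teneurin of cell adhesion (2.63 ± 0.14 SE).

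The 12 genes with the lowest fold changes are given next, regulators of transcription first. Lmo1 (ENSMUSG00000036111, chr7:109138572-109175207), a LIM-only transcriptional cofactor, was at 1.95, 2.96 and 2.35 CPM in the EV-deficient and 24.3, 27.3 and 28.6 CPM in the EV-proficient libraries, a log2 fold change of -3.47 ± 0.14 SE. Ebf3 (ENSMUSG00000010476, chr7:137193673-137314445), a factor of neuronal development, was at 0.946, 1.19 and 0.921 CPM in the EV-deficient and 11.4, 9.57 and 10.9 CPM in the EV-proficient libraries, a log2 fold change of -3.38 ± 0.27 SE. The homeobox genes Dmbx1, Hoxb9 and Hoxb6 and the zinc-finger factor Gata4 had log2 fold changes of -2.79 ± 0.19, -2.62 ± 0.10, -2.46 ± 0.20 and -2.30 ± 0.17 SE. Cdh2, the N-cadherin of neural and mesenchymal cells, was the most abundant of the 12, at 42.1, 39.7 and 37.7 CPM in the EV-deficient and 218, 235 and 224 CPM in the EV-proficient libraries (-2.50 ± 0.11 SE, log2). The microtubule regulators Stmn2 and Crmp1, both best known from neurons, fell by 2.49 ± 0.17 and 2.32 ± 0.08 SE. Rftn1, a lipid-raft protein, Apbb1ip, an adaptor that links RAP1 to integrins, and Serpinh1, the collagen chaperone HSP47, had values of -2.62 ± 0.15, -2.38 ± 0.09 and -2.27 ± 0.10 SE. None of the 24 calls was lost or changed sign in the 15 alternative settings run for each gene.

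Among genes above 200 CPM, a bound chosen after the data were seen, 8 differed by at least 2-fold. Klf6, a zinc-finger factor induced by injury, was at 132, 131 and 128 CPM in the EV-deficient and 597, 568 and 548 CPM in the EV-proficient libraries (-2.13 ± 0.06 SE, log2). Il5ra, the alpha chain of the interleukin-5 receptor, was at 554, 576 and 543 CPM in the EV-deficient and 1516, 1440.4 and 1332 CPM in the EV-proficient libraries (-1.36 ± 0.08 SE, log2). Both groups were well apart for these abundant genes. The calcium-binding annexin Anxa6 was also lower (-1.08 ± 0.07 SE), and the small heat-shock protein Cryab was higher (1.12 ± 0.06 SE). The other 4 were Krt14, Serpinb2, Sfn and Tuba1a, described with their gene groups.

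**Figure D2:**
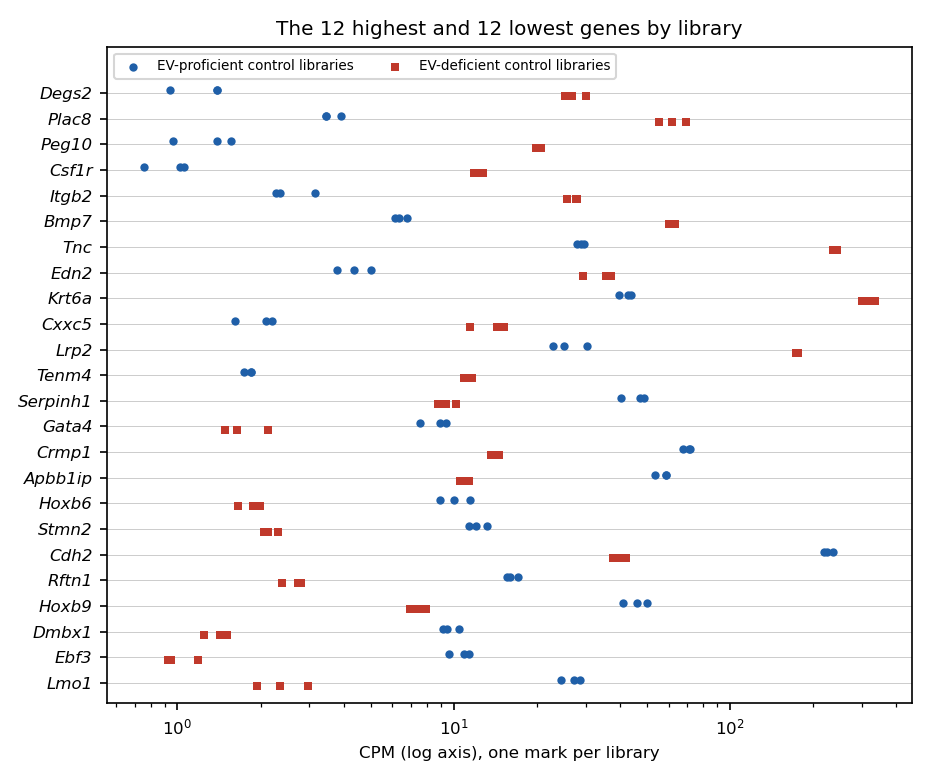
CPM in each of the 6 control libraries, on a log axis, for the 12 highest and 12 lowest genes named by size, ordered by fold change; squares are EV-deficient and circles EV-proficient libraries. In every row the 3 squares and the 3 circles do not overlap, from Degs2 (25.2 to 30.1 against 0.937 to 1.39 CPM) to Lmo1 (1.95 to 2.96 against 24.3 to 28.6 CPM).

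Some genes were at or under the floor of 3 counts in every library of 1 label. A total of 39 genes that passed the test had at most 3 counts in each EV-proficient library, and 30 had at most 3 counts in each EV-deficient library. Bcl11a, a zinc-finger repressor of lymphoid and neural development, had 122, 93 and 86 counts in the EV-deficient libraries and 0, 1 and 0 in the others. Set against a floor of 3 counts per library, it was at least 25.8-fold higher in the EV-deficient libraries. Rgn (regucalcin), Col25a1 (a transmembrane collagen) and Acvrl1 (a receptor for BMP9 and BMP10) were at least 5.59-fold, 4.81-fold and 4.56-fold higher by the same floor. In the other direction, Skint11, of the Skint family of skin and thymus, had 0 counts in all EV-deficient libraries and 21, 16 and 15 counts in the others, at least 7.34-fold lower. The chemokine Cxcl14 was at least 4.65-fold lower, the GABA receptor subunit Gabra4 at least 4.18-fold and the folate enzyme Aldh1l1 at least 3.96-fold. All these bounds set the mean of a group against the floor, and single libraries can lie nearer to it. Gabra4 had 3, 14 and 12 counts in the EV-proficient libraries, so replicate 1 was itself at the floor. Aldh1l1 had 12, 13 and 4 counts there, against 3, 2 and 2 in the EV-deficient libraries. The calls of Cxcl14, Gabra4 and Aldh1l1 were not made in 3, 5 and 1 of the 15 alternative settings.

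Hox genes, homeobox factors that encode position along the body axis from 4 chromosomal clusters, split by cluster. Of 39 members 20 could be tested, and 15 of these (75%) differed, 5 higher and 10 lower, with a median log2 fold change of -1.10. The median was -1.0 with the genes at the floor set to their bound and -0.72 without EV-proficient replicate 3. All 8 Hoxb genes that differed (Hoxb3, Hoxb4, Hoxb5, Hoxb6, Hoxb7, Hoxb8, Hoxb9 and Hoxb13) were lower in the EV-deficient libraries, while Hoxb2, the ninth tested, had a mean near 0.1 CPM and did not pass (-1.20, edgeR adjusted p 0.41). The split by cluster was described after the values were seen.

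Hoxb9 (ENSMUSG00000020875, chr11:96271457-96276595) was the most abundant Hox gene, at 7.44, 7.90 and 6.95 CPM in the EV-deficient and 40.98, 50.2 and 45.9 CPM in the EV-proficient libraries. Hoxb7 was at 1.34, 1.08 and 0.877 CPM in the EV-deficient and 6.77, 8.57 and 8.20 CPM in the EV-proficient libraries, a log2 fold change of -2.82 ± 0.20 SE. Hoxb8 and Hoxb4 changed by -2.92 ± 0.19 and -2.63 ± 0.26 SE, and Hoxb13, which lies apart from the rest of its cluster, by -3.39 ± 0.48 SE. In the Hoxa cluster the 5 neighbours Hoxa3 to Hoxa7 were higher, from 0.60 ± 0.18 SE for Hoxa3 to 1.79 ± 0.30 SE for Hoxa4, and Hoxa9 was lower (-1.0 ± 0.34 SE, edgeR adjusted p 0.034). The call of Hoxa3 was not made without EV-deficient replicate 3 (0.45) or EV-proficient replicate 1 (0.48) or 2 (0.55). That of Hoxa9 was not made in 7 of the 15 alternative settings, among them each of the fits with 1 library left out (-1.11 to -0.89) other than that without EV-proficient replicate 2. Hoxa2 and Hoxa10 did not pass, with log2 fold changes of -0.09 and 0.22. Hoxd8 was at 0.803, 0.542 and 0.307 CPM in the EV-deficient and 4.85, 4.45 and 4.33 CPM in the EV-proficient libraries (-3.01 ± 0.25 SE, log2). Within a Hox cluster genes lie close together and some transcripts overlap, and whether counting used the strand is not given in the sources used here, so neighbouring values may share reads.

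**Figure D3:**
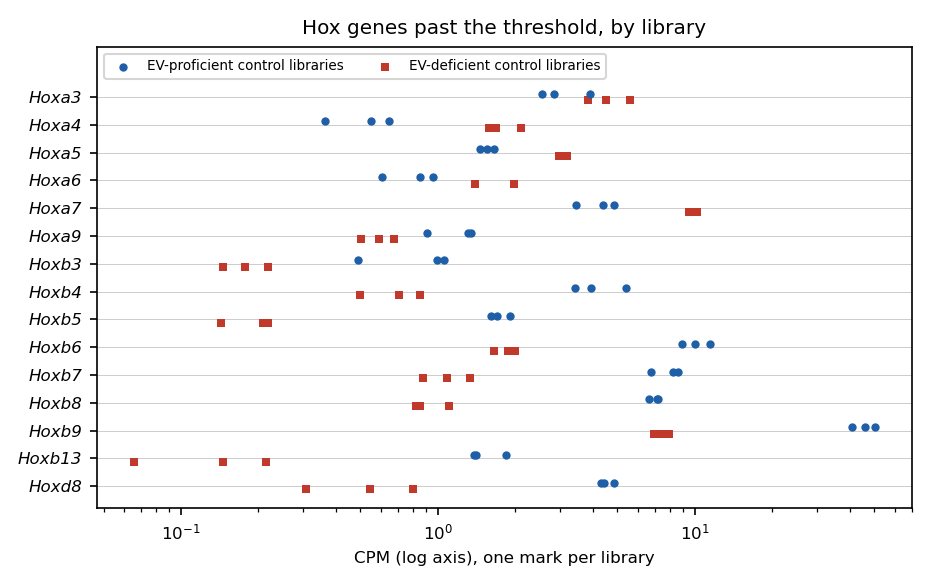
CPM in each of the 6 control libraries, on a log axis, for the 15 Hox genes past the threshold, ordered by cluster and number; squares are EV-deficient and circles EV-proficient libraries. All Hoxb genes and Hoxd8 have their squares to the left, Hoxa3 to Hoxa7 to the right, and Hoxa3 overlaps, with EV-proficient replicates reaching 3.89 CPM and EV-deficient replicates down to 3.84 CPM.

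Keratins, the intermediate filaments of epithelial cells, differed in both directions. Of 16 tested, 6 were higher, 2 lower and 8 did not pass, with a median of 0.25 (0.23 with the gene at the floor set to its bound). Krt6a (ENSMUSG00000058354, chr15:101689910-101694307), induced in wounded and hyperproliferative epidermis, was at 336, 300.04 and 318 CPM in the EV-deficient and 43.9, 42.6 and 39.5 CPM in the EV-proficient libraries. Krt14, the type I keratin of basal cells, was at 730.3, 645 and 669 CPM in the EV-deficient and 182, 206 and 186 CPM in the EV-proficient libraries, a log2 fold change of 1.83 ± 0.07 SE. Krt16, a partner of Krt6 keratins, and Krt17 had 1.71 ± 0.14 and 0.85 ± 0.08 SE. Among keratins of simple epithelium, Krt8 and Krt20 were lower (-0.28 ± 0.07 and -0.90 ± 0.15 SE) and Krt18 was higher (0.21 ± 0.07 SE). The call of Krt18 was not made with median-of-ratios scaling (0.19), without EV-deficient replicate 1 (0.18) or 3 (0.23), or without EV-proficient replicate 1 or 3 (0.19 each). Krt19 (-0.17 ± 0.06 SE, edgeR adjusted p 0.051; called as lower in 9 of the 15 alternative settings) and Krt7 (3111 ± 116 against 3114 ± 215 CPM, SD, n = 3 each) did not pass. Krt6a has a near-identical neighbour, Krt6b, and how shared reads were counted is not given in the sources used here.

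Of the genes of squamous differentiation that passed the test, all were higher in the EV-deficient libraries. Of 22 tested, 9 were higher and 0 lower, with a median of 0.78. DESeq2 and 5 other settings also passed between 1 and 3 members as lower. Sbsn (suprabasin, a secreted protein of differentiating keratinocytes) was at 34.01, 27.7 and 32.5 CPM in the EV-deficient and 10.3, 10.7 and 10.7 CPM in the EV-proficient libraries (1.57 ± 0.13 SE, log2). Sfn, the epithelial 14-3-3 protein stratifin, was at 360.1, 305 and 319 CPM in the EV-deficient and 151, 183 and 152 CPM in the EV-proficient libraries (1.01 ± 0.08 SE, log2). Both were separated between the labels by more than the spread of their replicates. Tgm1, which cross-links the cornified envelope, had 0.96 ± 0.13 SE, and Lor (loricrin, an envelope protein) 1.49 ± 0.32 SE at means under 2 CPM. The transcription factors Klf4 (0.82 ± 0.07 SE) and Sox2 (0.77 ± 0.15 SE) were also higher.

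Junction genes went both ways, 7 of 37 higher and 10 lower (median -0.10; 6 lower without EV-deficient replicate 1 or 2 or EV-proficient replicate 2, with a median of -0.07 without the last, and 15 lower in a fit of the 6 control libraries alone or 16 with a replicate block there). Cdh3, P-cadherin, was at 184, 164 and 162 CPM in the EV-deficient and 35.6, 38.5 and 33.9 CPM in the EV-proficient libraries (2.24 ± 0.08 SE, log2). Nectin4 and the desmosomal cadherin Dsg3 had 3.32 ± 0.25 and 2.34 ± 0.23 SE. Nectin3 was lower (-1.25 ± 0.12 SE), as were the desmosome linker Dsp (-0.51 ± 0.07 SE) and the claudins Cldn3 and Cldn4 (-0.63 ± 0.17 and -0.51 ± 0.06 SE; the libraries of Cldn3 overlapped). The call of Cldn3 was not made without EV-deficient replicate 1 (-0.56) or 2 (-0.53) or EV-proficient replicate 3 (-0.33). Cldn3, Cldn4 and Cldn12 lie in stretches of chromosome 5 with medians below 0, described at the end.

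Mesenchymal genes and regulators of the epithelial-mesenchymal transition did not move together, with 5 of 23 higher and 4 lower and a median of 0.33 (0.21 without EV-deficient replicate 2). Higher were Tnc, the homeobox factor Prrx1 (3.30 ± 0.17 SE), the matrix glycoprotein Sparc at 83.7, 77.5 and 76.7 CPM in the EV-deficient and 13.96, 18.2 and 18.4 CPM in the EV-proficient libraries (2.24 ± 0.09 SE, log2), Fn1 (0.21 ± 0.06 SE) and Snai1 (1.03 ± 0.26 SE). Lower were Cdh2, Zeb1 (-1.17 ± 0.17 SE), Zeb2 (-0.49 ± 0.12 SE) and the intermediate filament Vim (-0.62 ± 0.06 SE). The call of Fn1 was not made without EV-deficient replicate 2 or 3 (0.21 each) or EV-proficient replicate 2 (0.19) or 3 (0.20).

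Collagens included 5 of 27 higher and 3 lower, with 3 higher without EV-deficient replicate 3 or EV-proficient replicate 2. Col8a1, a short-chain collagen, was at 364, 334 and 336 CPM in the EV-deficient and 206, 221 and 195 CPM in the EV-proficient libraries (0.73 ± 0.08 SE, log2), and Col16a1 was higher by 1.54 ± 0.17 SE, while Col5a1 was lower (-1.44 ± 0.25 SE). Integrins and laminins had 7 of 24 higher and 5 lower. The beta chains Itgb3, Itgb7 and Itgb5 were higher (2.04 ± 0.33, 1.25 ± 0.15 and 0.91 ± 0.07 SE). The collagen-receptor chain Itga2 and the hemidesmosome chain Itgb4 were lower (-0.63 ± 0.08 and -0.55 ± 0.07 SE). Of 27 matrix proteases, plasminogen-system genes and inhibitors, 4 were higher and 11 lower. Cpa4, a carboxypeptidase, and Serpinb2, an inhibitor of plasminogen activators, rose by 1.92 ± 0.21 and 1.18 ± 0.09 SE. The metalloproteases Adamts9 (-1.33 ± 0.13 SE) and Adam8 fell, Adam8 from 152 ± 13.3 to 60.5 ± 1.58 CPM (SD, n = 3 each; -1.32 ± 0.09 SE, log2).

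The TGF-beta and BMP pathway held differences in both directions, and of the 40 of its genes tested, 10 were higher and 6 lower (median 0.17; 0.10 in a fit of the 6 control libraries alone). With median-of-ratios or upper-quartile scaling the split was 8 higher and 9 lower. Besides Bmp7, the ligand Bmp6 was higher (1.55 ± 0.18 SE) and Bmp2 and Tgfb1 were lower (-1.48 ± 0.13 and -1.04 ± 0.09 SE). Of the secreted binding proteins, the activin antagonist Fstl3 was higher (1.83 ± 0.34 SE) and Fstl1 lower (-1.76 ± 0.15 SE). Fstl3 varied among the EV-proficient replicates, at 4.01, 3.52 and 5.57 CPM in the EV-deficient and 0.414, 1.58 and 1.73 CPM in the EV-proficient libraries. Among receptors Bmpr2 was lower (-0.73 ± 0.08 SE), and among intracellular targets Id2 was higher (0.56 ± 0.08 SE) and Id3 lower (-0.23 ± 0.08 SE, with overlapping libraries). The call of Id3 was not made without the low-count filter (-0.19), without EV-deficient replicate 1 (-0.22) or 2 (-0.19), or without EV-proficient replicate 2 (-0.17) or 3 (-0.21).

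Wnt and Notch genes had 11 of 33 members higher and 6 lower, with a median of 0.21 (0.14 without EV-deficient replicate 3 and 0.09 without EV-proficient replicate 1). The Wnt ligands Wnt10b, Wnt5a and Wnt7a were higher (1.76 ± 0.19, 0.98 ± 0.10 and 0.74 ± 0.08 SE). The Notch ligands Dll1 and Dll4 and the receptor Notch3 were higher (1.28 ± 0.12, 1.25 ± 0.23 and 1.45 ± 0.26 SE), while the receptor Notch1 and the ligand Jag1 were lower (-0.96 ± 0.10 and -0.44 ± 0.08 SE). Dll1 was at 12.3, 11.8 and 11.9 CPM in the EV-deficient and 5.16, 4.79 and 4.89 CPM in the EV-proficient libraries. The ligand Wnt7b, the most abundant Wnt of the list, was only slightly higher (0.25 ± 0.06 SE).

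Feedback genes of the ERK pathway were more often higher, 9 of 25 against 3 lower, with a median of 0.19 (1 lower without EV-deficient replicate 1 or 3 or EV-proficient replicate 1 or 2). Etv5, an ETS factor induced by ERK signalling, was at 60.1, 63.8 and 61.4 CPM in the EV-deficient and 32.3, 30.99 and 33.4 CPM in the EV-proficient libraries (0.94 ± 0.08 SE, log2). The feedback inhibitors Spry1 and Spry2 were higher by 0.87 ± 0.08 and 0.53 ± 0.08 SE, and the ERK phosphatases Dusp4 and Dusp5 by 0.42 ± 0.06 and 0.32 ± 0.07 SE. The inhibitor Spry4 was lower (-0.36 ± 0.09 SE). AP-1 factors had 5 of 12 higher and 1 lower (median 0.21), among them Jun (0.36 ± 0.09 SE) and Fosl1 (0.48 ± 0.13 SE). For Fosl1 the lowest EV-deficient library, at 17.1 CPM, lay just above the highest EV-proficient one, at 16.8 CPM. Without EV-deficient replicate 3, 3 AP-1 factors passed as higher. The call of Fosl1 was not made without EV-deficient replicate 3 (0.35) or without EV-proficient replicate 1 (0.34).

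In the EGF receptor family 3 of 18 were higher and 3 lower. The receptor Egfr fell to 144 ± 1.87 from 193 ± 14.2 CPM (SD, n = 3 each), Erbb3 was higher (0.43 ± 0.08 SE), and so was the ligand Nrg2 (0.65 ± 0.16 SE). Targets of YAP and SRF had 8 of 23 higher and 5 lower, such as the tropomyosin Tpm2 (0.49 ± 0.07 SE) and the secreted matrix protein Thbs1 (-0.67 ± 0.06 SE). Without EV-deficient replicate 1, 4 passed as higher, and 5 without EV-deficient replicate 3 or EV-proficient replicate 1 or 3. The median of that list was 0.01 and turned to -0.01 with median-of-ratios or upper-quartile scaling and without EV-deficient replicate 1.

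Chemokines, interleukins and colony-stimulating factors had 7 of 33 tested members higher and 11 lower, a median of -0.15 (-0.03 without EV-proficient replicate 1). Among the lower members were Cxcl3 (-1.53 ± 0.22 SE), Cxcl2 (-1.02 ± 0.12 SE), Cxcl5 (-0.89 ± 0.10 SE) and Cxcl1 (-0.35 ± 0.07 SE), the last 3 of them chosen after their values were seen. Tslp, an epithelial cytokine that acts on dendritic cells, was at 8.64, 8.63 and 7.37 CPM in the EV-deficient and 32.4, 33.96 and 30.5 CPM in the EV-proficient libraries (-1.97 ± 0.11 SE, log2). The monocyte chemokine Ccl2 was at 1.12, 1.40 and 1.32 CPM in the EV-deficient and 3.87, 4.04 and 3.57 CPM in the EV-proficient libraries (-1.59 ± 0.26 SE, log2), and the macrophage growth factor Csf1 fell by 0.95 ± 0.10 SE. Higher were Il11 (1.89 ± 0.21 SE), Csf2 (0.94 ± 0.10 SE) and the angiogenic factor Vegfa (0.94 ± 0.10 SE). The ligand Csf1 and its receptor Csf1r thus had values of opposite sign.

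Of 42 interferon-stimulated genes tested, 1 was higher and 11 lower, with a median of -0.25. Without EV-deficient replicate 1, 7 passed as lower, and 6 did so under limma-voom, while without EV-proficient replicate 2 the median was -0.15. The exception was Oasl1, a repressor of Irf7 translation, at 6.48, 7.99 and 7.06 CPM in the EV-deficient and 1.66, 1.84 and 1.29 CPM in the EV-proficient libraries (2.15 ± 0.26 SE, log2). The antiviral synthase Oas3 was at 0.964, 0.688 and 0.724 CPM in the EV-deficient and 2.19, 2.37 and 2.25 CPM in the EV-proficient libraries (-1.50 ± 0.26 SE, log2), a call limma-voom did not make. Parp14, Ddx58 (the RNA sensor RIG-I) and Stat2 were lower (-1.10 ± 0.13, -0.79 ± 0.07 and -0.55 ± 0.13 SE). In the list of 23 genes of MHC class I presentation, 2 were higher and 7 lower (4 lower without EV-deficient replicate 3 or EV-proficient replicate 2, and 1 higher without either replicate 2). The light chain B2m was at 105, 104 and 107 CPM in the EV-deficient and 133, 148 and 152 CPM in the EV-proficient libraries (-0.45 ± 0.08 SE, log2), and the heavy chains H2-D1 and H2-K1 fell by 0.41 ± 0.06 and 0.30 ± 0.06 SE. H2-Q4 was higher (0.47 ± 0.13 SE), a call not made without EV-deficient replicate 2 (0.41) or EV-proficient replicate 2 (0.39). The class I genes are close relatives that may share reads.

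**Figure D4:**
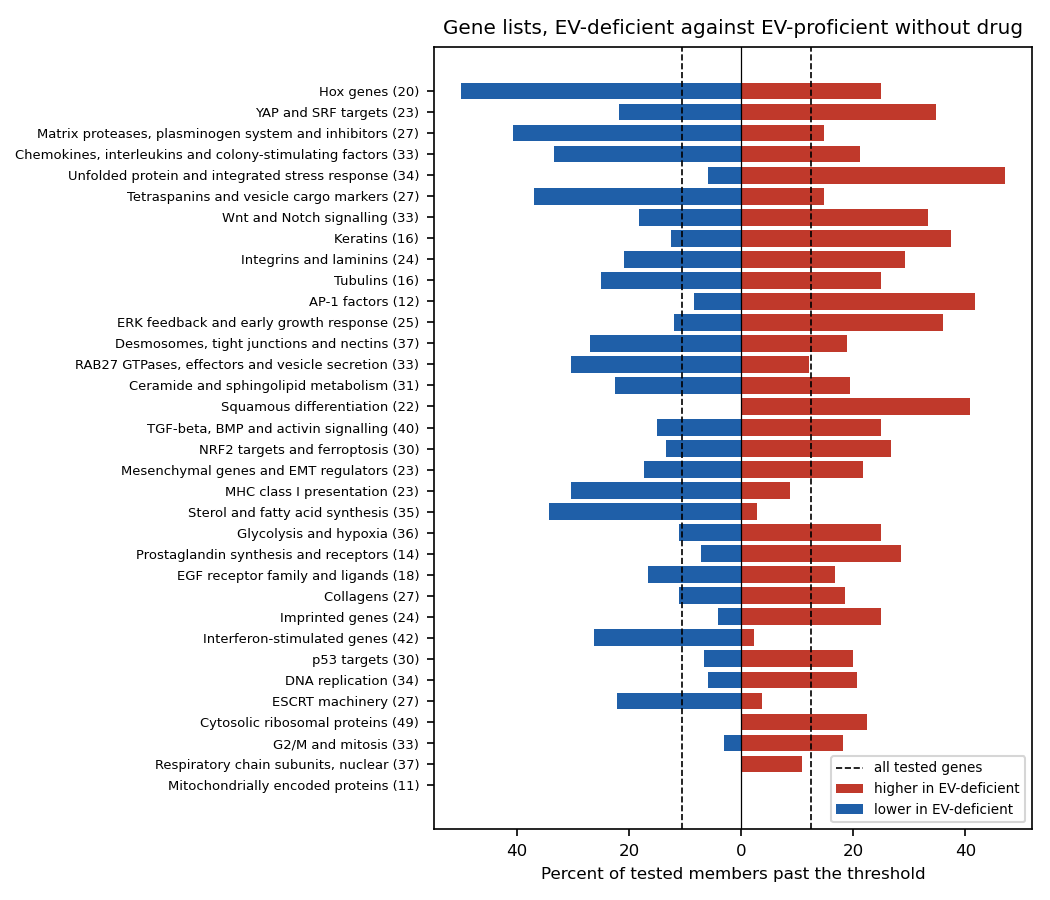
For each gene list, with the number of its tested members in brackets, bars give the percent of tested members past the threshold, higher in EV-deficient libraries to the right in red and lower to the left in blue; dashed lines mark 12.4% and 10.6%, the shares among all tested genes. Hox genes (10 of 20 lower), unfolded protein and integrated stress response genes (16 of 34 higher) and sterol and fatty acid genes (12 of 35 lower) are examples of lists with unequal sides.

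Genes of vesicle formation and release showed mostly small differences, more of them lower than higher. Rab27a and Rab27b, the GTPases of multivesicular body docking, had log2 fold changes of 0.01 ± 0.14 and 0.15 ± 0.08 SE and did not pass (edgeR quasi-likelihood adjusted p 0.99 and 0.21). Of the 33 genes of RAB27 effectors and secretion, 4 were higher and 10 lower (median -0.14), 6 of them lower without EV-deficient replicate 2 or EV-proficient replicate 2 and 2 higher without EV-deficient replicate 1. Unc13d, the priming factor MUNC13-4 that binds RAB27, was at 54.5, 55.4 and 58.3 CPM in the EV-deficient and 85.5, 87.4 and 88.7 CPM in the EV-proficient libraries (-0.64 ± 0.06 SE, log2). The phospholipase Pld2 and the GTPase Ralb fell by 0.49 ± 0.08 and 0.45 ± 0.07 SE, and the syndecan adaptor Sdcbp, or syntenin, fell by 0.30 ± 0.06 SE. Rab35 was slightly lower (-0.23 ± 0.06 SE, adjusted p 0.012), a call lost without EV-deficient replicate 2 or 3, without EV-proficient replicate 2 (-0.19) and without the low-count filter. Smpd3, the neutral sphingomyelinase that makes ceramide for vesicle budding, was at 1.14, 1.63 and 2.08 CPM in the EV-deficient and 2.27, 2.80 and 3.01 CPM in the EV-proficient libraries (-0.74 ± 0.23 SE, log2), and its call was lost under limma-voom and in 4 of the 6 fits with 1 library left out (-0.53 without EV-deficient replicate 1).

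Of 27 ESCRT genes tested, 1 was higher and 6 lower (median -0.09; -0.05 without EV-proficient replicate 2 or without the low-count filter), and the largest change among those that passed was that of Mvb12b (-0.34 ± 0.08 SE). The core components Tsg101 (-0.09 ± 0.06 SE) and Pdcd6ip, or ALIX (399.8 ± 12.2 against 399.9 ± 13.4 CPM, SD, n = 3 each), did not pass. Tetraspanins and vesicle cargo had 4 of 27 higher and 10 lower. Cd81, a tetraspanin used as a vesicle marker, was at 56.3, 55.96 and 59.2 CPM in the EV-deficient and 41.9, 42.7 and 45.2 CPM in the EV-proficient libraries (0.40 ± 0.07 SE, log2). Cd63 (-0.06 ± 0.06 SE) and Cd9 (0.14 ± 0.07 SE) did not pass. The raft protein Flot2 was at 94.5, 96.2 and 93.2 CPM in the EV-deficient and 182, 199 and 192 CPM in the EV-proficient libraries (-1.01 ± 0.07 SE, log2), and Tspan8 and Tspan17 fell by 1.15 ± 0.10 and 1.52 ± 0.20 SE. Without EV-deficient or EV-proficient replicate 2, 2 ESCRT genes passed as lower, and 3 without either replicate 3. In a fit of the 6 control libraries alone, 16 RAB27-related, 12 ESCRT and 13 tetraspanin and cargo genes passed as lower.

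Some lists of stress and metabolic genes were 1-sided, while others went both ways. Of 34 genes of the unfolded protein and integrated stress responses, 16 were higher and 2 lower, a median of 0.15, and between 14 and 17 were higher in each alternative setting. Without EV-deficient replicate 2 or 3 or EV-proficient replicate 1 or 2, 1 passed as lower. Ddit4, an inhibitor of mTORC1 induced by stress, was at 21.04, 20.02 and 26.9 CPM in the EV-deficient and 7.41, 10.8 and 10.6 CPM in the EV-proficient libraries (1.24 ± 0.17 SE, log2). Nupr1, a stress-induced chromatin protein, was at 19.3, 19.7 and 19.3 CPM in the EV-deficient and 9.48, 9.55 and 8.52 CPM in the EV-proficient libraries (1.08 ± 0.12 SE, log2). The lipoprotein receptor Vldlr, the glutathione-degrading Chac1 and the cystine transporter Slc7a11 rose by 0.76 ± 0.11, 0.56 ± 0.10 and 0.46 ± 0.08 SE. The endoplasmic reticulum chaperones Hspa5 and Hyou1 rose less, by 0.22 ± 0.06 and 0.31 ± 0.06 SE.

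In sterol and fatty acid synthesis 12 of 35 genes were lower and 1 higher, with a median of -0.17. Cyp51, the lanosterol demethylase, was at 235, 222 and 219.5 CPM in the EV-deficient and 351, 370.4 and 341 CPM in the EV-proficient libraries (-0.65 ± 0.07 SE, log2), and it lies in the first run of lower genes on chromosome 5. Mvk and Lss, enzymes of the mevalonate and lanosterol steps, fell by 0.48 ± 0.09 and 0.41 ± 0.06 SE. The desaturase Scd1 was the only higher gene (0.54 ± 0.06 SE), while its relative Scd2 was lower (-0.19 ± 0.06 SE). The call of Scd2 was not made without the low-count filter (-0.15) and in each fit with 1 library left out (-0.20 to -0.17) other than that without EV-proficient replicate 3. Ceramide and sphingolipid genes had 6 of 31 higher and 7 lower (4 lower without EV-deficient replicate 2). Degs2 and its relative Degs1 differed in sign (4.45 and -0.32 ± 0.07 SE), and the ceramide kinase Cerk and the ceramidase Acer2 were higher (1.10 ± 0.13 and 0.76 ± 0.14 SE).

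Glycolysis and hypoxia genes had 9 of 36 higher and 4 lower, and isoenzymes of the same step differed in sign. The hexokinase Hk2 was higher and Hk1 lower (0.61 ± 0.06 and -0.57 ± 0.06 SE), and the phosphofructokinase Pfkm was higher and Pfkp lower (0.76 ± 0.09 and -1.06 ± 0.07 SE). The lipase inhibitor Angptl4 was at 7.14, 6.51 and 7.72 CPM in the EV-deficient and 26.7, 29.1 and 26.8 CPM in the EV-proficient libraries (-1.95 ± 0.17 SE, log2), and the carbonic anhydrase Car12 was higher (1.48 ± 0.10 SE). Of 30 NRF2 and ferroptosis genes, 8 were higher and 4 lower (2 lower without EV-deficient replicate 3), such as Gsta4 (0.99 ± 0.14 SE) and Akr1b8 (-0.69 ± 0.08 SE). In prostaglandin synthesis and transport 4 of 14 were higher and 1 lower. Ptgs2, the inducible cyclooxygenase, was already abundant and rose to 1545 ± 126 from 989 ± 71.4 CPM (SD, n = 3 each; 0.64 ± 0.08 SE, log2). Its constitutive relative Ptgs1 and the prostaglandin transporter Slco2a1 were higher (2.44 ± 0.20 and 0.83 ± 0.06 SE), and the exporter Abcc4 was lower (-0.92 ± 0.08 SE). A fit of the 6 control libraries alone passed more genes of these metabolic lists as lower, 20 for sterol and fatty acid synthesis, 12 for ceramide and sphingolipids, 8 for glycolysis and hypoxia and 9 for NRF2 and ferroptosis.

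Ribosomal protein genes passed in 11 of 49 cases (22.4%), all higher, with a median of 0.14. That share was near the 23.0% of all tested genes and below the 32.7% of genes of at least 8 CPM. The largest change was that of Rplp2 (0.35 ± 0.10 SE). The call of Rplp2 was not made under DESeq2 (0.33) or without EV-deficient replicate 3 (0.32) or EV-proficient replicate 1 (0.27). The count of higher ribosomal protein genes was 2 without EV-deficient replicate 1 or EV-proficient replicate 1 and 3 without EV-proficient replicate 3. It was 5 without EV-deficient replicate 3 and 19 without EV-proficient replicate 2. With median-of-ratios scaling it was 7, with upper-quartile scaling or DESeq2 8, and in the other alternatives up to 27. Upper-quartile scaling, DESeq2 and both fits of the 6 control libraries alone each passed 1 such gene as lower. Of 37 nuclear genes of the respiratory chain 4 were higher and 0 lower (median 0.12; 1 higher without replicate 1 of either label, 8 higher and 1 lower in the fit of the 6 control libraries alone and 10 higher without the low-count filter), and of 11 mitochondrially encoded genes 0 passed (between 0 and 1 over the alternatives). Their median was 0.04 and turned to -0.06 without EV-deficient replicate 2 and -0.01 without EV-proficient replicate 2, with 0.12 without either replicate 3.

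Genes of proliferation showed small differences. DNA replication genes had 7 of 34 higher and 2 lower (median 0.14), with 12 and 4 in the fit of the 6 control libraries alone and 11 higher without the low-count filter, led by Cdc45 (0.42 ± 0.07 SE) and the thymidine kinase Tk1 (0.35 ± 0.07 SE). G2/M and mitosis genes had 6 of 33 higher and 1 lower (median 0.03, between 0.01 and 0.06 without 1 control library). The lower call was not made without any 1 library other than EV-proficient replicate 3, and 5 were lower in the fit of the 6 control libraries alone. Of 30 p53 targets 6 were higher and 2 lower (median 0.10; 0.16 without EV-proficient replicate 3 and 1 lower without EV-proficient replicate 2), with Sesn2 and Pmaip1 at 0.51 ± 0.07 and 0.48 ± 0.07 SE. The split of the p53 targets was 3 higher and 3 lower with upper-quartile scaling and 5 and 4 under DESeq2. Without 1 control library, 2 to 3 mitosis genes and 3 p53 targets passed as higher, whichever library was left out, and the number of higher replication genes was 3 without EV-proficient replicate 1 and 4 without EV-deficient replicate 1 or 3. For lower replication genes it was 1 without EV-deficient replicate 1 or 2 or EV-proficient replicate 2 or 3. The senescence-related genes Cdkn1a, Cdkn2a, Cdkn2b, Lmnb1, Mki67 and Trp53 had log2 fold changes between -0.08 (Mki67) and 0.17 (Cdkn2a), and none passed. Glb1, which encodes the lysosomal beta-galactosidase, was lower (-0.32 ± 0.09 SE, adjusted p 0.01), a call lost without EV-deficient replicate 3 (-0.27) and without EV-proficient replicate 1 (-0.28) or 2 (-0.27).

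Tubulins form the microtubules that paclitaxel binds. Of 16 isotypes 4 were higher, 4 were lower and 8 did not pass, with 2 higher without replicate 1 of either label. Tuba1a was at 263, 254 and 240.3 CPM in the EV-deficient and 551, 590.2 and 561 CPM in the EV-proficient libraries (-1.17 ± 0.07 SE, log2), and Tubb2b and Tubb2a fell by 1.23 ± 0.07 and 0.63 ± 0.06 SE. Tuba8 and Tubb3 were higher (1.07 ± 0.19 and 0.53 ± 0.09 SE). Tubulin isotypes are near-identical over much of their length, so their counts may share reads. Of 24 imprinted genes 6 were higher and 1 lower (0 lower without any 1 control library other than EV-proficient replicate 3). They included Peg10 and its neighbour Sgce (2.22 ± 0.32 SE), both paternally expressed, and the maternally expressed RNA H19 (1.82 ± 0.34 SE). Sgce and H19 had means under 2 CPM.

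The differences were not spread evenly over the chromosomes. Chromosome 5 had 262 of its 1242 tested genes lower (21.1%) and 94 higher (7.57%), against 10.6% and 12.4% of all genes. Chromosome 11 had the largest share of higher genes (17.7% of 1410). Positions came from the GENCODE M21 annotation on GRCm38, the build the submitters' processing notes name. The 9259 genes of at least 8 CPM were then taken in chromosomal order in 362 consecutive windows of 25 genes. The windows held 9050 of these genes, and the remainder, at chromosome ends, fell in none. The window size and a bound of 0.25 on the absolute median log2 fold change were chosen after the data were seen. Of these windows 10 passed the bound, while the other 352 had medians between -0.17 and 0.19.

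The longest run lay near the end of chromosome 5 (chr5:124328089-147111597), where 7 windows in a row, 175 genes, had a median of -0.33. Of the 175, 165 had a negative log2 fold change, 130 were lower and 1 was higher. These windows were chosen by their fold changes, so the counts (74.9% past the threshold, against 32.7% of all genes of that level) only describe them. The median difference corresponds to a ratio of 0.795. In each EV-deficient library the median deviation of these genes from their mean over the 6 controls was between -0.18 and -0.16, and in each EV-proficient library between 0.12 and 0.21, on the log2 scale; these 6 libraries chose the run, so the values show only the spread within each label. Members in the gene lists include the claudins Cldn3 (-0.63) and Cldn4 (-0.51), the Notch glycosyltransferase Lfng (-0.52), the replication factor Rfc2 (-0.36) and the small MAF factor Mafk (-0.37). List members of the run that did not pass were the serine synthesis enzyme Psph (0.14) and the replication helicase subunit Mcm7 (-0.07). The start of chromosome 5 (chr5:3341485-13602565) held 1 such window, with a median of -0.38, 16 of 25 genes lower and 5 higher, among them Cyp51 and the Wnt receptor Fzd1 (-0.64). Over all tested genes of any level in both stretches, 142 of 300 and 22 of 56 were lower, and on the rest of chromosome 5 98 of 886 were lower (11.1%) and 86 higher (9.71%).

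On chromosome 14 (chr14:86655367-118132755) a window of 25 genes had a median of 0.51, with 21 higher and 0 lower. Over all tested genes of any level in that span, 24 of 48 were higher and 2 lower, with a median of 0.40. The window holds the ERK inhibitor Spry2 and the epithelial factor Klf5 (0.31 ± 0.07 SE). Further members, chosen after their values were seen, were the cornified envelope protein Scel at 46.6, 49.6 and 47.5 CPM in the EV-deficient and 19.7, 13.4 and 15.95 CPM in the EV-proficient libraries (1.55 ± 0.14 SE, log2), the mitotic factor Bora (0.96 ± 0.07 SE) and the glypican Gpc6 (0.92 ± 0.10 SE). Abcc4, beyond the window on the same chromosome, was lower. The deviations were 0.24 to 0.25 in the EV-deficient and -0.31 to -0.22 in the EV-proficient libraries. A window on chromosome 11 (chr11:113661319-115823094) had a median of 0.254, just past the bound of 0.25, with 14 of 25 higher and 0 lower. Of the tested genes of any level there, 16 of 37 were higher and 0 lower. With windows of 50 genes, tried after the data were seen, 3 of 174 windows passed the bound, all in the run near the end of chromosome 5.

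**Figure D5:**
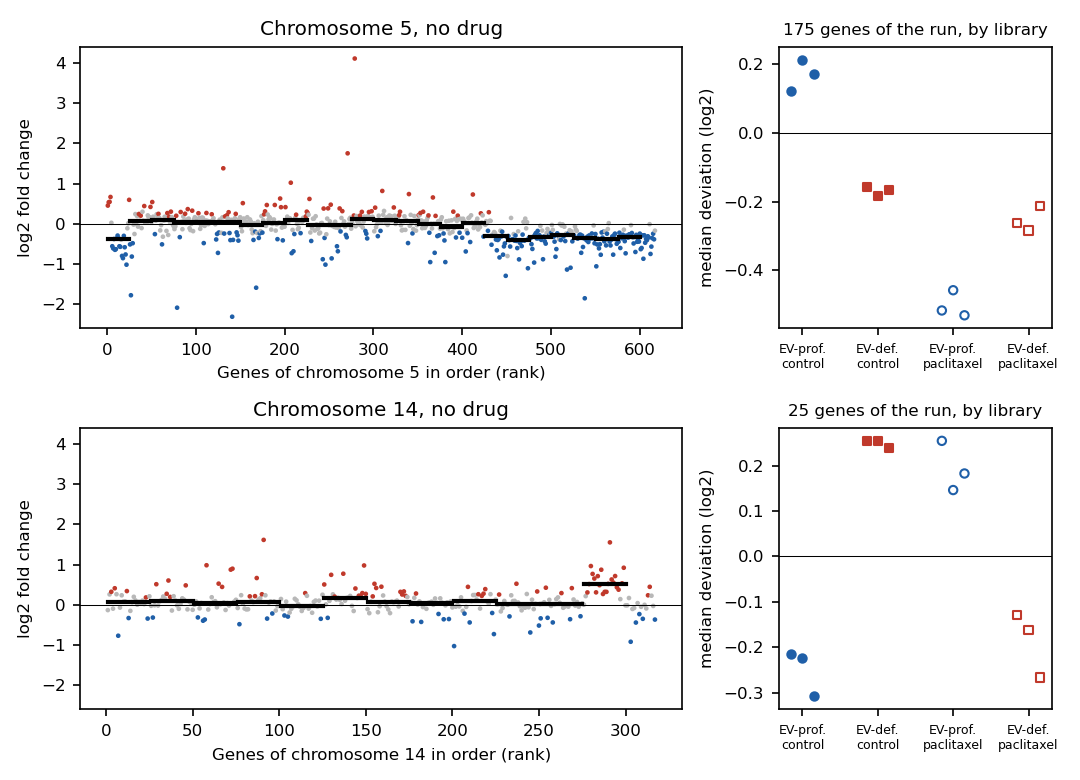
Left, log2 fold changes (EV-deficient over EV-proficient, no drug) of genes of at least 8 CPM on chromosomes 5 and 14 in chromosomal order, red higher, blue lower, grey not past the threshold, with black bars for medians of 25 genes and all genes inside the axis. Right, the median deviation (log2) of the genes of the run from their mean over the 6 controls, 1 mark per library; filled marks are control and open marks paclitaxel libraries, and on chromosome 14 the EV-deficient libraries lie at 0.24 to 0.25 without drug and at -0.27 to -0.13 under paclitaxel.

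The runs were also read under paclitaxel, in libraries that share none with the drug-free comparison. There the 175 genes of chromosome 5 had a median of 0.21 between the same labels, with 142 positive, and the window of chromosome 14 had a median of -0.48, with 23 of 25 negative. The window at the start of chromosome 5 had 0.25 and that of chromosome 11 had -0.33. All 4 stretches thus had medians of opposite sign with and without the drug, as had 282 of the 352 windows that did not pass the bound. The medians of those 352 lay between -0.17 and 0.19 without drug, where a small common shift can turn the sign. Their count therefore cannot decide whether the reversal was particular to the 4 stretches. Under paclitaxel the chromosome 5 run lay below its drug-free mean in the libraries of both labels, at -0.28 to -0.21 (EV-deficient) and -0.53 to -0.46 (EV-proficient).

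Single genes showed the same reversal. Of the 4162 genes that differed without drug, 3691 had the opposite sign under paclitaxel, including all 24 named by size. The test of the difference between both label effects passed for 3746 of the 4162, and for 7370 of all tested genes (40.7%). That test uses the same control libraries that selected the genes, so only the sign under paclitaxel is separate from the selection. The log2 fold changes under paclitaxel were -2.30 for Degs2, -2.61 for Krt6a, 3.01 for Lmo1 and 2.83 for Hoxb9. A minority kept their sign, such as Unc13d (-0.64 without drug and -0.11 with it).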

How the data were processed

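Poly(A) RNA was made into stranded TruSeq mRNA libraries (labels' protocols). All 12 libraries share 1 table of raw counts per gene (55423 rows), as the authors deposited it. The submitters' processing notes name STAR 2.5.0a and GRCm38. Whether counting used the strand and how shared reads were assigned are not given in the sources used here. The 2 rows that the authors added (dngfr and gfp) were left out, as they carry no Ensembl identifier, and 0 columns belonged to other samples.

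The counts were analysed with edgeR 4.0.16 in R 4.3.3. Genes passed filterByExpr (minimum count 10), library sizes were TMM-scaled, and 1 quasi-likelihood model was fitted to all 4 groups of the 12 libraries, with no replicate block. The drug-free contrast was tested at a Benjamini-Hochberg adjusted p of 0.05. SE is the absolute log2 fold change over the square root of F. Levels are TMM-scaled CPM. The floor of 3 counts covers counting error only: the protocol names no molecular identifiers, so PCR copies count as reads. Alternatives were other scalings and filters, DESeq2 1.42.0, limma-voom (limma 3.58.1), the 6 control libraries alone, a replicate block and leaving out each control library. The scripts were tested on simulated counts.

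Genes were named by rule. These were the 12 highest and 12 lowest called genes of at least 5 CPM with groups that did not overlap, up to 4 called members per list of at least 1 CPM by absolute fold change, 17 fixed genes, and per direction 4 genes at the floor in the other group. The comparison, its 34 gene lists and the rule were chosen with earlier results of these data known. Named beyond the rule, after their values were seen, were Anxa6, Bmp2, Bmpr2, Cd68, Cdh1, Cdh5, Chac1, Cldn3, Cldn4, Cryab, Csf1, Csf2, Cxcl1, Cxcl2, Cxcl5, Ddx58, Degs1, Dsp, Dusp4, Dusp5, Epcam, Fn1, H19, H2-K1, Hk1, Hk2, Hoxa10, Hoxa2, Hoxa3, Hoxa4, Hoxa7, Hoxa9, Hoxb13, Hoxb2, Hoxb3, Hoxb5, Hspa5, Hyou1, Id2, Id3, Il5ra, Itgb4, Jag1, Klf4, Klf5, Klf6, Krt17, Krt18, Krt19, Krt7, Krt8, Lss, Myod1, Notch1, Pfkm, Ptprc, Scd2, Sgce, Snai1, Sox2, Spry4, Stat2, Tgfb1, Tubb3, Vegfa, Vim, Wnt5a, Wnt7a, Wnt7b, Zeb1, Zeb2, and the members of chromosomal stretches. Some genes are not reported here.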

Additional observations from a re-analysis of the deposited data

Results flagged for a closer look

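The label effect differed between the treatments for many genes by the test of that difference (paclitaxel minus no drug). It was -6.75 for Degs2, -8.01 for Plac8, 6.48 for Lmo1 and 5.45 for Hoxb9 on the log2 scale, and in all 4 the sign turned. Of the genes called without drug, 3638 had both the opposite sign under paclitaxel and a difference of the label effects past the threshold. The test uses the drug-free libraries that selected these genes, and an exchange of labels in 1 treatment was not tested.

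The authors' table holds a row named dngfr, added to the Ensembl genes, that the comparison does not use. Its mean level was 2.14 TMM-scaled CPM in EV-deficient and 8.99 in EV-proficient libraries without drug. Under paclitaxel it was 10.9 in EV-deficient and 3.24 in EV-proficient libraries, the opposite order. The other added row, gfp, was at 0 in all 12 libraries.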

How the results depend on the processing

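Leaving out 1 control library gave 2980 to 3515 called genes (1533 to 1920 higher, 1383 to 1642 lower, 416 to 461 at least 2-fold higher and 338 to 412 at least 2-fold lower), with EV-deficient replicate 1 giving the fewest. A fit of the 6 control libraries alone gave 5697, of which 2900 were lower. Other scalings moved the median of all genes from 0.04 to 0.02 (median of ratios) or 0.01 (upper quartile), and the share of calls that were higher from 53.9% to 48.2% and 47.1%; without the low-count filter it was 64.1%. No gene called both ways changed sign. The replicate numbers did not pair the libraries (same-number correlations of deviations -0.05, -0.08 and 0.04), and a replicate block gave 4258 calls, or 5486 on the 6 control libraries alone.

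Of 2568 values of genes named by rule under the alternatives, 2424 kept their direction and side of the threshold. Of the others, 124 were of called genes that kept their sign and lost the call, 18 changed sign and 2 gained a call. The changes of sign were of uncalled genes near 0. Rab27a was at -0.0167 (median of ratios), -0.0236 (upper quartile), -0.00573 (1 CPM filter), -0.0146 (DESeq2), -0.0253 (6 control libraries), -0.0211 (the same with a replicate block) and -0.0634 to 0.11 with 1 library left out. Without the filter, Pdcd6ip was at 0.0417 and Lmnb1 at 0.0141. With 1 library left out, Pdcd6ip lay between -0.0217 and 0.0277, Lmnb1 between -0.0435 and 0.00192 and Mki67 between -0.15 and 0.0312. Tsg101 was called with the 6 control libraries alone (-0.13) and Cdkn2a without the filter (0.22). Causes were not tested. Genes at a few counts per library have wide relative counting error, so fold changes under 1 CPM are the least precise.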
